A study of Schizosaccharomyces pombe with 6 samples.

Results

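Respiration in fission yeast (Schizosaccharomyces pombe) is carried out in the inner mitochondrial membrane by a chain of protein complexes. Succinate dehydrogenase (complex II) and other dehydrogenases pass electrons to ubiquinone, the cytochrome bc1 complex (complex III) passes them to cytochrome c, and cytochrome c oxidase (complex IV) passes them to oxygen. Fission yeast has no proton-pumping complex I, and the proton gradient that complexes III and IV build drives ATP synthase. Most subunits are encoded in the nucleus, and dedicated assembly factors put them together with the few subunits made inside the mitochondrion. The genes described here were every S. pombe probe set that the array annotation assigns to a single gene whose symbol begins with cox, qcr, atp, sdh, cyt, cyc or rip followed by a digit. That rule found 42 probe sets for 42 genes, of 2936 S. pombe probe sets tested, and used no measured value. The members were nevertheless chosen with earlier results of these data known. They comprise 33 genes for subunits, cytochrome c included, and 9 genes for assembly factors. The 33 are 4 genes of complex II, 9 of complex III, the cytochrome c gene cyc1, 7 of complex IV and 12 of ATP synthase. Of the assembly factor genes, 5 act on ATP synthase and 4 on complex IV. The members are spread over the chromosomes, with 15 on chromosome I, 15 on chromosome II and 12 on chromosome III. Subunits encoded in the mitochondrial genome were not analysed here.

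Total RNA was taken from cultures in mid-log growth in rich medium (YEL), labelled with biotin and hybridised to Affymetrix arrays, 2 arrays in each of 3 groups. The fkh2delta group lacks fkh2 and is strain CG 116. The fkh2-S2A group carries an altered fkh2 allele in strain CG 209, and the wild-type group is also strain CG 209. The labels do not spell out the S2A change, and an array does not read it. Fkh2 is a forkhead transcription factor best known for the periodic transcription of genes used in mitosis. Whether the arrays within a group are separate cultures is not stated, so the p-values reflect variation between arrays that could be purely technical. The values below are log2 signals as deposited. Differences are given ± the standard error (SE) of a limma fit with 2 arrays per group. Each adjusted p-value comes from that fit, corrected by the Benjamini-Hochberg method across the 2936 probe sets, and 0.05 is the threshold.

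The fkh2 signal was 4.34 and 4.05 on the fkh2delta arrays, 7.47 and 7.76 on the fkh2-S2A arrays and 7.53 and 7.39 on the wild-type arrays, so that neither fkh2delta array read it above background. The ura4 signal, which reads an enzyme of uracil synthesis often used as a marker, was 5.40 and 6.17 in fkh2delta against 12.79 and 12.56 in wild type. The deletion therefore cannot be told apart from the other strain differences in any value of fkh2delta. Median S. pombe signals were 10.1 to 10.2 on the 6 arrays, and the background, the 95th percentile of probe sets for other species, was 5.17 to 5.35. All 42 members lay above background on every array. Their median signal was 12.2 to 12.5, with subunit genes at 12.4 to 12.8 and assembly factor genes at 9.85 to 10.2. The part of signal level in the differences below was not tested. The arrays also carry probe sets for the budding yeast counterparts of these genes, and 53 of them had a median of 4.03 over the 6 arrays, with 5 above background. These 53 belong to the probe sets that define the background, so their count is no separate check. Measures that depend on RNA quality and labelling also differed between groups. The signal of 3′ probe sets minus that of 5′ probe sets, averaged over 6 S. pombe control genes, was 1.53 and 1.61 in fkh2delta, 1.34 and 1.24 in fkh2-S2A and 1.27 on both wild-type arrays. The slope of an array's deviation against gene length, per doubling, was -0.073 and -0.059 in fkh2delta, 0.070 and 0.107 in fkh2-S2A and -0.034 and -0.010 in wild type. The members are short, with a median gene length of 1147 bases against 1872 bases over all tested probe sets. Their replicate arrays differed by a median of 0.092 in fkh2delta, 0.148 in fkh2-S2A and 0.086 in wild type, the widest gap being 0.588 for cox8 in fkh2-S2A.

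The strain without fkh2 was first set against wild type. More subunit genes fell than rose, with cox5, sdh1, atp4, atp5, cyt1 and qcr2 lowest, and the highest rises were those of the ATP synthase assembly factor genes atp12, atp11 and atp25. Of the 42 members 15 fell, 8 rose and 19 did not pass. Of all S. pombe probe sets tested, 64.0% were called in this comparison, made up of 40.4% higher and 23.6% lower, so the share of members called, 23 of 42, is not above the background. The fkh2delta and wild-type arrays did not overlap for 12 higher and 24 lower members, against 53.1% and 34.0% of all probe sets. The median member differed by -0.16, against 0.16 for all tested probe sets. Median centring of the arrays lowers the median of all probe sets to 0.03, and then 22 members fell and 6 rose, with a member median of -0.29. Of all 2936 probe sets 908 were lower and 979 higher in that setting. Relative to the median of all probe sets the members lay at -0.32 as deposited and at -0.18 after quantile normalization. Among the 33 subunit genes 14 fell and 4 rose (median -0.23), and among the 9 assembly factor genes 1 fell and 4 rose (median 0.11, or -0.02 after median centring). In bulk RNA, fewer cells expressing a gene and less of its RNA per cell cannot be told apart.

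**Figure D1:**
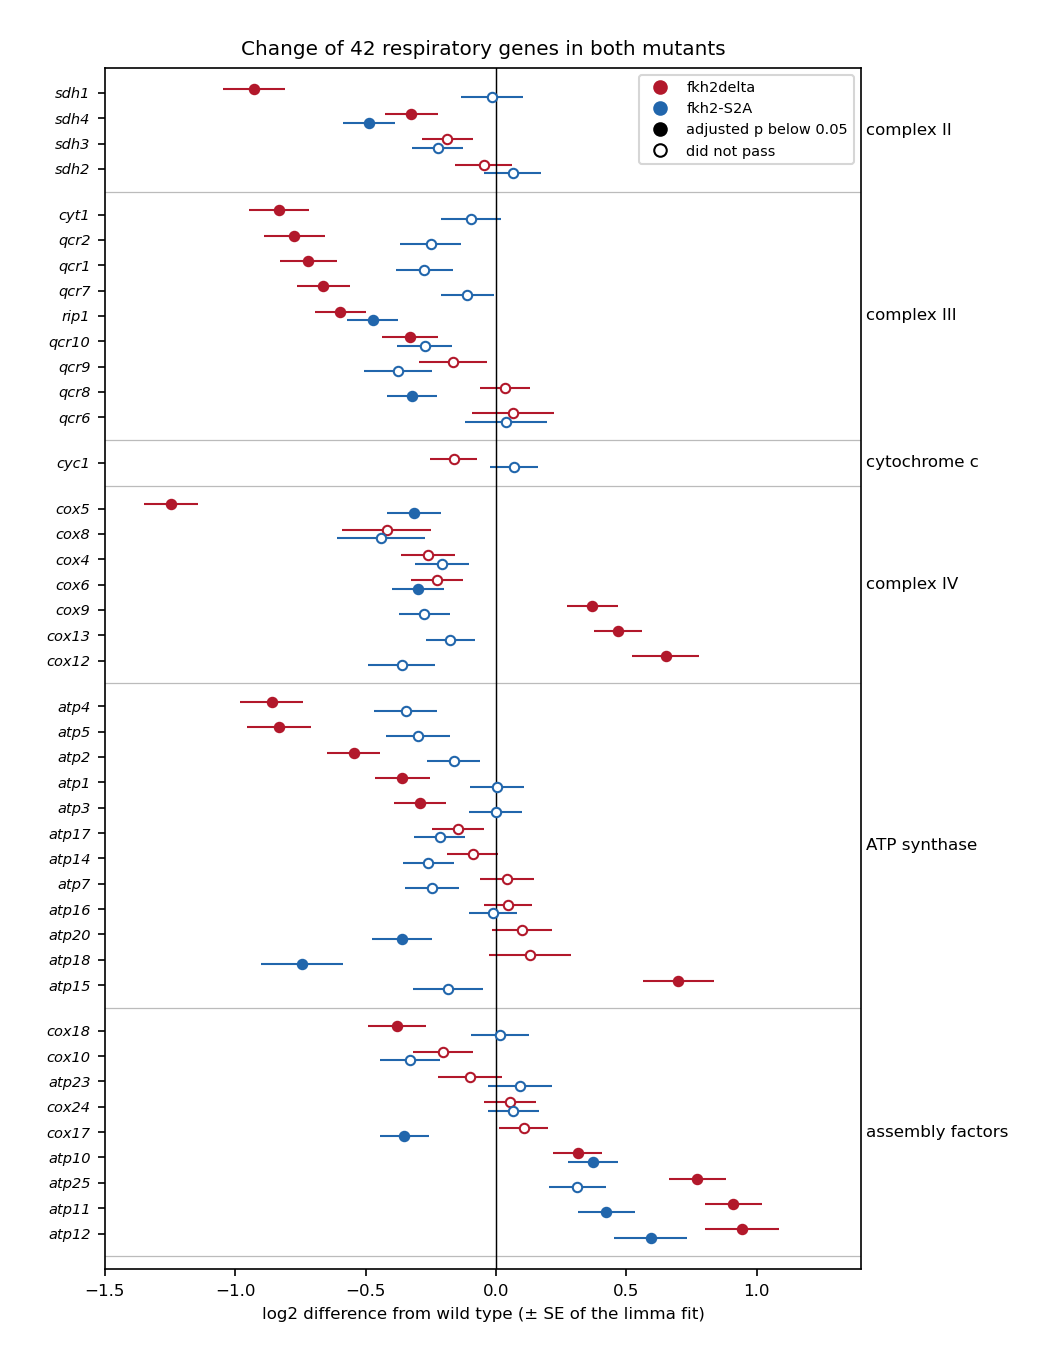
Log2 difference from wild type (x axis) of each of the 42 genes, with fkh2delta in red above fkh2-S2A in blue for each gene. Bars are the SE of the limma fit, and filled points passed an adjusted p of 0.05. In fkh2delta the genes spread from cox5 at -1.25 to atp12 at 0.94, and in fkh2-S2A from atp18 at -0.74 to atp12 at 0.59.

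Complex II is the tricarboxylic acid cycle enzyme that feeds electrons from succinate into the chain. In fkh2delta 2 of its 4 genes fell, against 23.6% of all probe sets. The flavoprotein gene sdh1, whose product oxidises succinate, read 12.01 and 11.89 in fkh2delta against 12.84 and 12.92 in wild type. Both fkh2delta arrays lay well below both wild-type arrays, a difference of -0.93 ± 0.12 or 0.526 of the wild-type signal (adjusted p = 0.000185, limma). The membrane anchor gene sdh4, whose probe set RefSeq now names tim18 with sdh4 as a synonym, read 12.36 and 12.31 in fkh2delta against 12.61 and 12.72 in wild type, a smaller fall of 0.32 ± 0.10 (adjusted p = 0.0193, limma). The iron-sulphur protein gene sdh2 (-0.05) and the other membrane anchor gene sdh3 (-0.19) did not pass. Of the catalytic pair, the flavoprotein gene therefore passed and the iron-sulphur gene did not.

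Complex III had the lowest median of the complexes in fkh2delta, -0.60. There 6 of its 9 genes fell, against 23.6% of all probe sets, while none rose, also at an unadjusted p below 0.05. Cytochrome c1, the haem subunit that hands electrons to cytochrome c, is encoded by cyt1, which read 11.02 and 10.84 in fkh2delta against 11.73 and 11.79 in wild type. The groups did not overlap and differed by -0.83 ± 0.12 (adjusted p = 0.0003, limma). The core protein gene qcr2 read 12.21 and 11.92 in fkh2delta against 12.82 and 12.86 in wild type. It was lower on both mutant arrays, by -0.77 ± 0.12 (adjusted p = 0.000447, limma). The other core protein gene, qcr1, fell by 0.72 ± 0.11, the small subunit gene qcr7 by 0.66 ± 0.10, the Rieske iron-sulphur protein gene rip1 by 0.60 ± 0.10 and the small subunit gene qcr10 by 0.33 ± 0.11. The 3 that did not pass are the small subunit genes qcr9 (-0.17), qcr8 (0.03) and qcr6 (0.07). All 4 genes of the redox and core proteins, cyt1, rip1, qcr1 and qcr2, are thus among the 6 that fell. The genes qcr1 and sdh4 are neighbours on chromosome II, and both fell. Cytochrome c itself, the soluble carrier between complexes III and IV, read 13.47 and 13.45 in fkh2delta against 13.58 and 13.67 in wild type, and its gene cyc1 did not pass (-0.16 ± 0.09, adjusted p = 0.146, limma).

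In complex IV 1 gene fell and 3 rose in fkh2delta, against 4 lower and 3 higher with each array's trend with gene length removed. Of all probe sets 23.6% were lower and 40.4% higher as deposited, and with the trend removed 704 of 2936 were lower and 1182 higher. The nuclear-encoded subunit gene cox5 had the deepest fall of all 42 members. It read 11.88 and 11.71 in fkh2delta against 13.03 and 13.06 in wild type, 0.422 of the wild-type signal and the only member past 2-fold in this comparison (-1.25 ± 0.10, adjusted p = 2.31e-05, limma). Its replicates lay 0.169 apart in fkh2delta and 0.030 apart in wild type, far less than the gap between the groups. The small peripheral subunit gene cox12 read 12.56 and 12.79 in fkh2delta against 12.06 and 11.99 in wild type. Both mutant arrays were higher, by 0.65 ± 0.13 or 1.57-fold (adjusted p = 0.00201, limma). The subunit gene cox13 read 12.18 and 12.24 in fkh2delta against 11.79 and 11.69 in wild type, and it rose by 0.47 ± 0.09 (adjusted p = 0.00216, limma). The subunit gene cox9 also rose by 0.37 ± 0.10. The subunit genes cox8 (-0.42), cox4 (-0.26) and cox6 (-0.23) were negative and did not pass as deposited. With the length trend removed all 3 passed, at -0.50 for cox8, -0.29 for cox4 and -0.25 for cox6. The differences of these 7 subunit genes thus spanned 1.90 log2 units, against 0.897 for the 9 genes of complex III.

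ATP synthase consists of a catalytic F1 head with a rotating central stalk, a membrane part and a peripheral stalk that holds the head still. Of its 12 genes 5 fell and 1 rose in fkh2delta, against 23.6% of all probe sets lower and 40.4% higher. The deepest falls were in the peripheral stalk. Its subunit b gene atp4 read 12.78 and 12.46 in fkh2delta against 13.42 and 13.53 in wild type. That is a difference of -0.86 ± 0.12 without overlap (adjusted p = 0.000317, limma). The gene of the oligomycin-sensitivity subunit, atp5, which joins the stalk to the head, read 12.29 and 11.96 in fkh2delta against 12.88 and 13.03 in wild type, a fall of 0.83 ± 0.12 (adjusted p = 0.000418, limma). The peripheral stalk genes atp14 (-0.09) and atp7 (0.04) did not pass. In the F1 head, the catalytic β gene atp2 fell by 0.55 ± 0.10, the α gene atp1 by 0.36 ± 0.10 and the γ gene atp3, which forms the rotor shaft, by 0.29 ± 0.10. The ε gene of the same central stalk, atp15, moved the other way. It read 13.36 and 13.61 in fkh2delta against 12.78 and 12.79 in wild type, a rise of 0.70 ± 0.14 or 1.62-fold (adjusted p = 0.00179, limma). The δ gene atp16 (0.05) and the membrane subunit genes atp17 (-0.15), atp20 (0.10) and atp18 (0.13) did not pass.

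**Figure D2:**
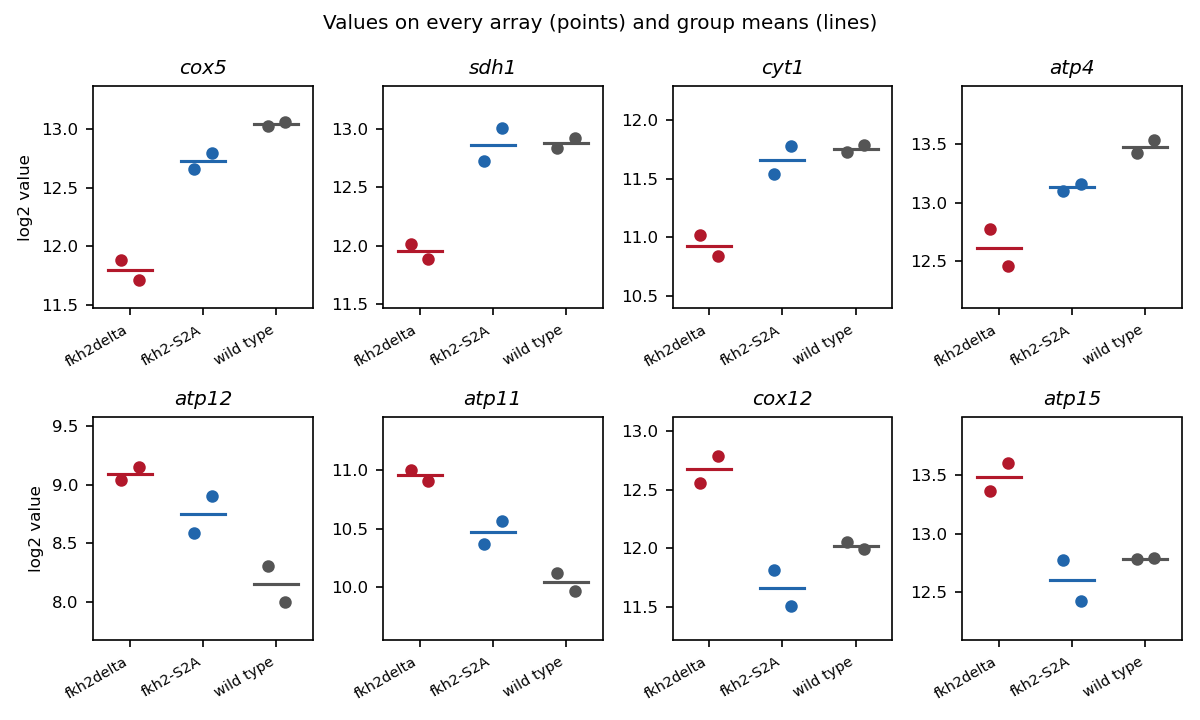
Log2 values on each of the 6 arrays (points) and group means (lines) of 8 genes, all panels with the same span. For cox5, sdh1, cyt1 and atp4 both fkh2delta arrays lie below all 4 other arrays, and for atp12, atp11, cox12 and atp15 both lie above them.

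Of the 5 assembly factor genes for ATP synthase 4 rose in fkh2delta (median 0.77). Of the 4 for complex IV 1 fell and none rose, also at an unadjusted p below 0.05 (median -0.08). Among all 9 assembly factor genes 4 rose and 1 fell, against 40.4% of all probe sets higher and 23.6% lower. The share of the 9 that rose was thus near that of all probe sets. The chaperone gene atp12, whose product holds the free F1 α subunit until it is assembled, read 9.04 and 9.15 in fkh2delta against 8.31 and 7.998 in wild type, 1.92-fold and the highest rise of all members (0.94 ± 0.14, adjusted p = 0.000441, limma). The chaperone gene for the F1 β subunit, atp11, read 11.00 and 10.91 in fkh2delta against 10.12 and 9.97 in wild type, 1.88-fold (0.91 ± 0.11, adjusted p = 0.000137, limma). For both chaperone genes the arrays of the 2 groups were far apart, whereas the genes of the client subunits, atp1 and atp2, are among those that fell. The gene atp25, whose budding yeast counterpart stabilises a mitochondrial ATP synthase message, read 11.25 and 11.41 in fkh2delta against 10.56 and 10.55 in wild type (0.77 ± 0.11, adjusted p = 0.000357, limma). The gene atp10, which in budding yeast serves the assembly of a mitochondrially made subunit, rose by 0.31 ± 0.10, and the processing protease gene atp23 did not pass (-0.10). For complex IV, cox18, which in budding yeast inserts a mitochondrially made subunit into the membrane, fell by 0.38 ± 0.11. The haem A synthesis gene cox10 (-0.20), cox24 (0.05), which in budding yeast serves the maturation of a mitochondrial message, and the copper chaperone gene cox17 (0.11) did not pass. Of the 23 calls of fkh2delta against wild type, 16 held in all 17 other settings tried, which include leaving out each array in turn; sdh4, qcr10, cox9, atp1, atp3, atp10 and cox18 lost theirs in 2 to 5 of them, each without the second fkh2delta array among others. Leaving out the first fkh2delta array ended the calls of sdh4, qcr10, atp3 and atp10, the first wild-type array that of atp3, and the second wild-type array those of sdh4, qcr10, atp1, atp10 and cox18.

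The strain with the altered fkh2 allele was then set against the same wild-type arrays. These groups share the strain name, and their ura4 signals were 12.83 and 12.85 in fkh2-S2A against 12.79 and 12.56 in wild type. The subunit genes that passed were all lower, with atp18, sdh4 and rip1 lowest, and the 3 genes that rose, atp12, atp11 and atp10, all encode ATP synthase assembly factors. Of the 42 members 8 fell, 3 rose and 31 did not pass, against 33.3% of all probe sets called, made up of 23.5% higher and 9.84% lower. The share of members called, 11 of 42, is below that background. The share called lower is 8 of 42, or 2 of 42 with the gene-length trend removed, where 313 of all 2936 probe sets were lower. Arrays did not overlap for 5 higher and 27 lower members, against 40.0% and 27.1% of all probe sets. The median member differed by -0.22, against 0.04 for all tested probe sets. With the length trend removed it was -0.11, against 0.08 for all. After median centring 21 fell and 3 rose, where 498 of all 2936 probe sets were lower and 560 higher. Of the 33 subunit genes 29 were negative, 7 fell and none rose, also at an unadjusted p below 0.05. These counts rest on few arrays: without the second wild-type array no member passed (3 higher and 6 lower at an unadjusted p below 0.05, limma), and without the second fkh2-S2A array 6 did.

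A membrane subunit of ATP synthase had the deepest fall in fkh2-S2A. Its gene atp18, which encodes the small subunit i/j, read 11.96 and 11.42 in fkh2-S2A against 12.43 and 12.45 in wild type. The fkh2-S2A replicates lay 0.540 apart, and both were below wild type (-0.74 ± 0.16, adjusted p = 0.00863, limma). The other member of the membrane part to fall was the subunit g gene atp20, which read 12.37 and 12.08 in fkh2-S2A against 12.56 and 12.62 in wild type (-0.36 ± 0.12, adjusted p = 0.0414, limma). In complex II, sdh4 read 12.10 and 12.25 in fkh2-S2A against 12.61 and 12.72 in wild type, a difference of -0.49 ± 0.10 (adjusted p = 0.00769, limma). The flavoprotein gene sdh1 did not pass, with 12.72 and 13.004 in fkh2-S2A overlapping its wild-type values (-0.02 ± 0.12).

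In complex III, rip1 read 12.76 and 12.86 in fkh2-S2A against 13.24 and 13.34 in wild type, a fall of 0.47 ± 0.10 (adjusted p = 0.00819, limma). The small subunit gene qcr8 read 12.15 and 12.14 in fkh2-S2A against 12.50 and 12.43 in wild type, a fall of 0.32 ± 0.10 (adjusted p = 0.0328, limma). Both genes had groups that did not overlap; cyt1 (-0.10), qcr1 (-0.28), qcr2 (-0.25) and qcr7 (-0.11) did not pass. All 7 complex IV genes were negative, between -0.44 and -0.18, and cox5 (-0.31 ± 0.10, adjusted p = 0.0453, limma) and cox6 (-0.30 ± 0.10, adjusted p = 0.0473, limma) passed. The largest of these differences was that of the subunit gene cox8, which read 11.66 and 11.07 in fkh2-S2A against 11.74 and 11.87 in wild type and did not pass (-0.44 ± 0.17, adjusted p = 0.0765, limma). Its fkh2-S2A arrays were further apart than those of any other member. The cytochrome c gene cyc1 read 13.69 and 13.70 in fkh2-S2A against 13.58 and 13.67 in wild type and did not pass (0.07 ± 0.09, adjusted p = 0.61, limma). The qcr8 and cox5 calls were lost without any 1 of the 6 arrays, and those of cox6 and atp20 without any 1 except the first fkh2-S2A array.

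Among assembly factors in fkh2-S2A, the 5 for ATP synthase were all positive and 3 rose (median 0.37). Of all 9 assembly factor genes 3 rose and 1 fell, against 23.5% of all probe sets higher and 9.84% lower. The F1 α chaperone gene atp12 read 8.59 and 8.91 in fkh2-S2A against 8.31 and 7.998 in wild type, 1.51-fold (0.59 ± 0.14, adjusted p = 0.0138, limma). The F1 β chaperone gene atp11 read 10.37 and 10.57 in fkh2-S2A against 10.12 and 9.97 in wild type, 1.34-fold (0.42 ± 0.11, adjusted p = 0.0191, limma). The gene atp10 read 8.84 and 8.96 in fkh2-S2A against 8.56 and 8.49 in wild type (0.37 ± 0.10, adjusted p = 0.0187, limma). In each case both fkh2-S2A arrays lay above both wild-type arrays; atp25 (0.31, adjusted p = 0.0581, limma) and atp23 (0.09) did not pass. All 3 calls were lost without the second wild-type array or without the second fkh2-S2A array. Under quantile normalization the difference was 0.14 for atp10, which then did not pass (adjusted p = 0.239, limma), and 0.36 for atp12. For complex IV, the copper chaperone gene cox17 read 11.50 and 11.62 in fkh2-S2A against 11.88 and 11.94 in wild type, a fall of 0.35 ± 0.09 (adjusted p = 0.0231, limma) that was lost without the first fkh2-S2A or the second wild-type array.

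The difference between fkh2-S2A and wild type varied with gene length, and the shorter subunit genes were the lower ones. Across the 33 subunit genes, which share arrays and normalisation and are not independent, the difference correlated with log2 gene length at r = 0.56 (Spearman's rho 0.55). When each array's trend with gene length over all probe sets was removed, r was 0.15 and rho 0.16. The trend-corrected calls were 3 higher and 2 lower, against 3 and 8 as deposited. Over all 2936 probe sets they were 700 higher and 313 lower, against 689 and 289 as deposited. The ATP synthase assembly factor genes atp10, atp11 and atp12 still rose, and rip1 (-0.41) and atp18 (-0.53) still fell. The other 6 falls, those of sdh4, qcr8, cox5, cox6, atp20 and cox17, did not pass in that form. For fkh2delta the correlation was r = -0.47 and rho = -0.53 as deposited, and -0.41 and -0.49 with the trend removed. There the corrected calls were 8 higher and 18 lower, against 8 and 15. Over all 2936 probe sets the corrected calls were 1182 higher and 704 lower, against 1186 and 693. The part of RNA quality or labelling in the length trend was not tested.

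**Figure D3:**
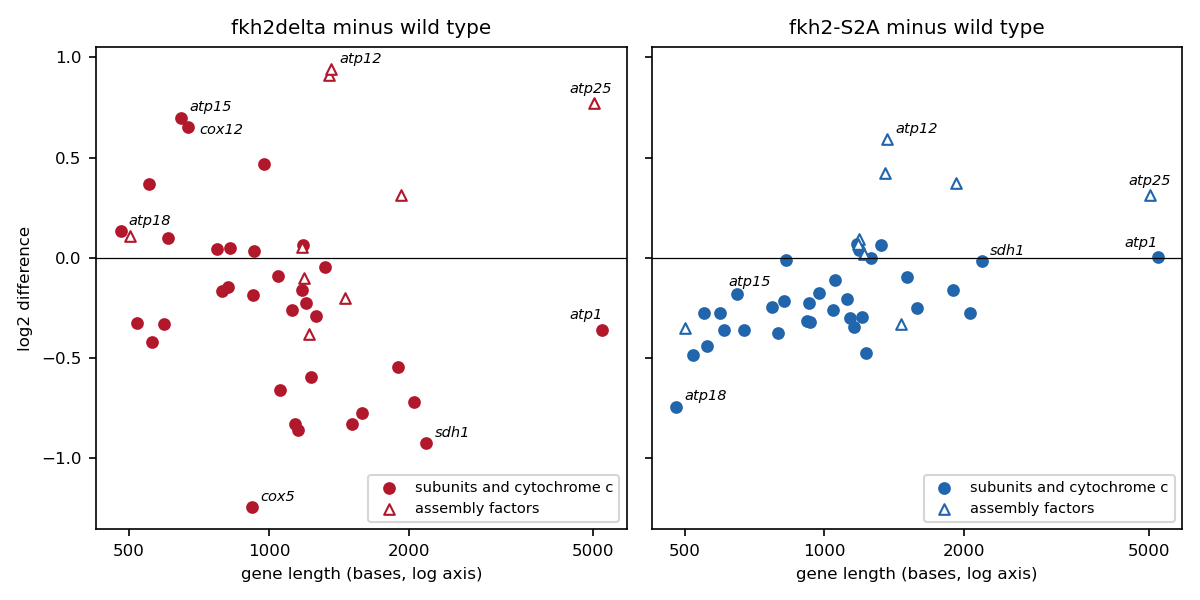
Log2 difference from wild type (y axis) against gene length (log x axis, bases) for 33 subunit genes (filled circles) and 9 assembly factor genes (open triangles), fkh2delta left and fkh2-S2A right. In fkh2-S2A the shortest gene, atp18 with 479 bases, is lowest and the longest, atp1 with 5233 bases, is at 0.00. In fkh2delta the deepest fall, cox5, has 919 bases and the subunit genes with rises, such as atp15 with 647 bases, are short.

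The direct comparison of fkh2-S2A with fkh2delta, which again differ in strain, set the altered allele against the absent gene. It shares arrays with the comparisons above and is no independent repeat of them. Of the 42 members 12 rose, 11 fell and 19 did not pass, against 49.1% of all probe sets called, made up of 22.5% higher and 26.6% lower. Arrays did not overlap for 14 higher and 16 lower members, against 37.3% and 40.9% of all probe sets. The median member differed by -0.02, as did that of all probe sets (-0.02). The members' median was 0.12 with the length trend removed and 0.02 after median centring. The number called was 13 without the second fkh2delta array and 15 without the second fkh2-S2A array.

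Genes higher in fkh2-S2A than in fkh2delta included sdh1, at 12.72 and 13.004 in fkh2-S2A against 12.01 and 11.89 in fkh2delta (0.91 ± 0.12, adjusted p = 0.000316, limma). The complex IV gene cox5, at 12.66 and 12.80 in fkh2-S2A against 11.88 and 11.71 in fkh2delta, had the widest rise, 1.91-fold (0.93 ± 0.10, adjusted p = 0.000142, limma). Its fkh2-S2A values also lay below both wild-type values, so that the 3 groups were fully separated. In complex III, cyt1, at 11.54 and 11.78 in fkh2-S2A against 11.02 and 10.84 in fkh2delta, rose by 0.73 ± 0.12 (adjusted p = 0.000923, limma). The others of complex III were qcr7 (0.55 ± 0.10), qcr2 (0.52 ± 0.12) and qcr1 (0.45 ± 0.11), while rip1 did not pass (0.12 ± 0.10). In ATP synthase the rises were those of atp5 (0.53 ± 0.12), atp4 (0.51 ± 0.12), atp2 (0.39 ± 0.10), atp1 (0.36 ± 0.10) and atp3 (0.29 ± 0.10), and the insertion factor gene cox18 rose by 0.40 ± 0.11. Without the second fkh2delta array the calls of qcr1, qcr2, cox18 and all 5 ATP synthase genes were lost, without the second fkh2-S2A array those of qcr1, atp1, atp2, atp3 and cox18, and without the first fkh2delta array that of atp3. With the length trend removed atp1 was at 0.13 and did not pass (adjusted p = 0.325, limma).

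Genes lower in fkh2-S2A than in fkh2delta were led by cox12, at 11.81 and 11.51 in fkh2-S2A against 12.56 and 12.79 in fkh2delta (-1.01 ± 0.13, adjusted p = 0.000297, limma). The F1 ε gene atp15 read 12.78 and 12.43 in fkh2-S2A against 13.36 and 13.61 in fkh2delta (-0.88 ± 0.14, adjusted p = 0.000789, limma). The membrane subunit gene atp18 read 11.96 and 11.42 in fkh2-S2A against 12.55 and 12.59 in fkh2delta (-0.88 ± 0.16, adjusted p = 0.00184, limma). Smaller falls were those of cox9 (-0.64 ± 0.10), cox13 (-0.64 ± 0.09) and the F1 β chaperone gene atp11 (-0.49 ± 0.11), whose fkh2-S2A values lay between those of fkh2delta and wild type. The remaining falls were those of atp20 (-0.46), cox17 (-0.46), atp25 (-0.46), qcr8 (-0.36) and atp7 (-0.29). Without the second fkh2-S2A array the calls of atp20, atp25, qcr8 and atp7 were lost, without the first fkh2delta array those of atp20, qcr8 and atp7, without the second those of atp25 and atp7, and without the first fkh2-S2A array that of atp7. With the length trend removed, atp20 (-0.21), qcr8 (-0.20), cox17 (-0.17) and atp7 (-0.09) did not pass, and 13 members were higher and 7 lower. Of all 2936 probe sets 655 were then higher and 776 lower. The cytochrome c gene cyc1 did not pass as deposited, with a difference of 0.23 ± 0.09 (adjusted p = 0.0634, limma). It passed in 5 of the 17 other settings, among them removal of the length trend (0.33, adjusted p = 0.0161, limma). In this comparison the correlation of the difference with log2 gene length across the 33 subunit genes was 0.64 (rho 0.69), and 0.47 (rho 0.58) with the trend removed.

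The Rieske protein gene rip1 could be read again, since the array carries control probe sets for its 3′ end, middle and 5′ end. The 3′ control read 12.69 and 12.55 in fkh2delta, 12.64 and 12.71 in fkh2-S2A and 13.05 and 13.10 in wild type. The middle control read 12.31 and 12.20 in fkh2delta, 12.33 and 12.37 in fkh2-S2A and 12.86 and 13.02 in wild type. The 5′ control read 11.81 and 11.60 in fkh2delta, 11.94 and 11.87 in fkh2-S2A and 12.42 and 12.53 in wild type. All 3 thus placed both mutants below both wild-type arrays. The difference of fkh2delta from wild type was -0.46, -0.69 and -0.77 for the 3′, middle and 5′ controls, and that of fkh2-S2A was -0.40, -0.59 and -0.57. The differences were therefore wider away from the 3′ end. The 3′ minus 5′ signal of rip1 was 0.878 and 0.952 in fkh2delta, 0.697 and 0.835 in fkh2-S2A and 0.623 and 0.572 in wild type. These controls were outside the fit and have no p-value, and the part of RNA quality in the rip1 fall was not tested.

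**Figure D4:**
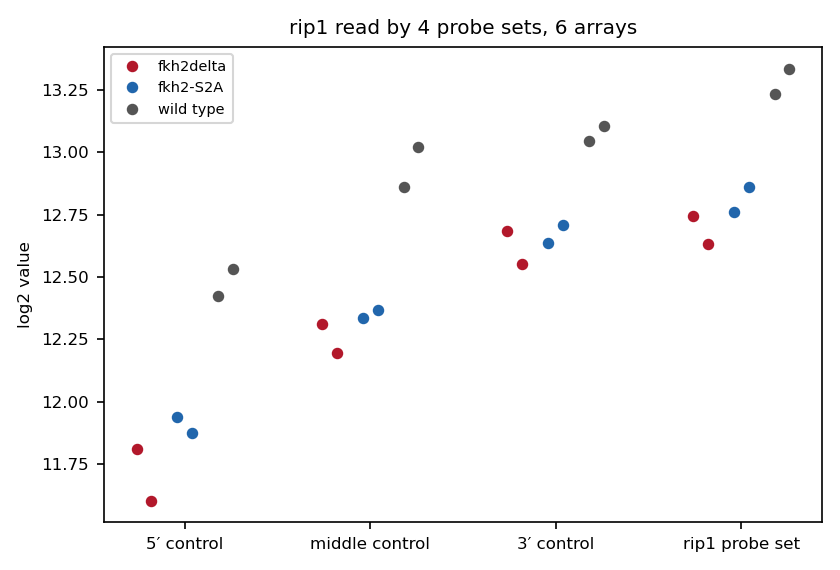
Log2 values of rip1 on the 6 arrays, read by its 5′, middle and 3′ control probe sets and by the probe set counted among the 42 genes (x axis), with fkh2delta in red, fkh2-S2A in blue and wild type in grey. In every column both wild-type points lie above all 4 mutant points, and levels are compared only within a column.

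Other genes of respiration were read from the same fit. These lists too were chosen with earlier results of these data known, so their counts are descriptive. The tricarboxylic acid cycle and pyruvate dehydrogenase list was low in fkh2delta. There 9 of 13 genes fell and 3 rose, against 23.6% and 40.4% of all probe sets. The list's median was -0.76, against 0.16 for all probe sets. Its 2 largest differences were those of kgd2, a subunit gene of 2-oxoglutarate dehydrogenase (-1.26 ± 0.09), and the fumarase gene fum1 (-1.16 ± 0.11), whose enzyme acts directly after complex II. In fkh2-S2A 1 of the 13 fell, fum1 (-0.52 ± 0.11), and 2 rose, the higher being pdx1 of the pyruvate dehydrogenase complex (0.82 ± 0.14). Of all probe sets 9.84% were lower and 23.5% higher there. In fkh2-S2A against fkh2delta 9 of the 13 rose, led by lat1 of pyruvate dehydrogenase (1.20 ± 0.11) and kgd2 (1.12 ± 0.09). In that comparison 22.5% of all probe sets were higher. The list's median in fkh2-S2A was 0.01, against 0.04 for all probe sets.

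Haem, the cofactor of cytochromes, is made by a pathway of which 7 genes were measured, and in fkh2delta 5 of them fell and none rose, also at an unadjusted p below 0.05 (median -0.60). Of all probe sets, 40.4% were higher and 23.6% lower in fkh2delta. The gene of its first enzyme, hem1, read 10.60 and 10.43 in fkh2delta against 11.64 and 11.84 in wild type (-1.23 ± 0.11), and hem13 fell by 0.85 ± 0.11. In fkh2-S2A against wild type the only haem gene past the test was hem14, which rose (0.52 ± 0.11). Against fkh2delta 6 of the 7 were higher in fkh2-S2A, as were 22.5% of all probe sets, with hem1 at 1.32 ± 0.11. The php genes encode subunits of a CCAAT-box factor, and their roles were not tested here. All 4 that were measured fell in fkh2delta (median -0.61), with php5 at -0.78 ± 0.12 and php2, near background, at -0.71 ± 0.13. In fkh2-S2A php3 was at -0.46 ± 0.12 and passed as deposited but not with the length trend removed (-0.31, adjusted p = 0.0694, limma), and the other 3 did not pass (median -0.23). Against fkh2delta 3 of the 4 were higher in fkh2-S2A, as were 22.5% of all probe sets.

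**Figure D5:**
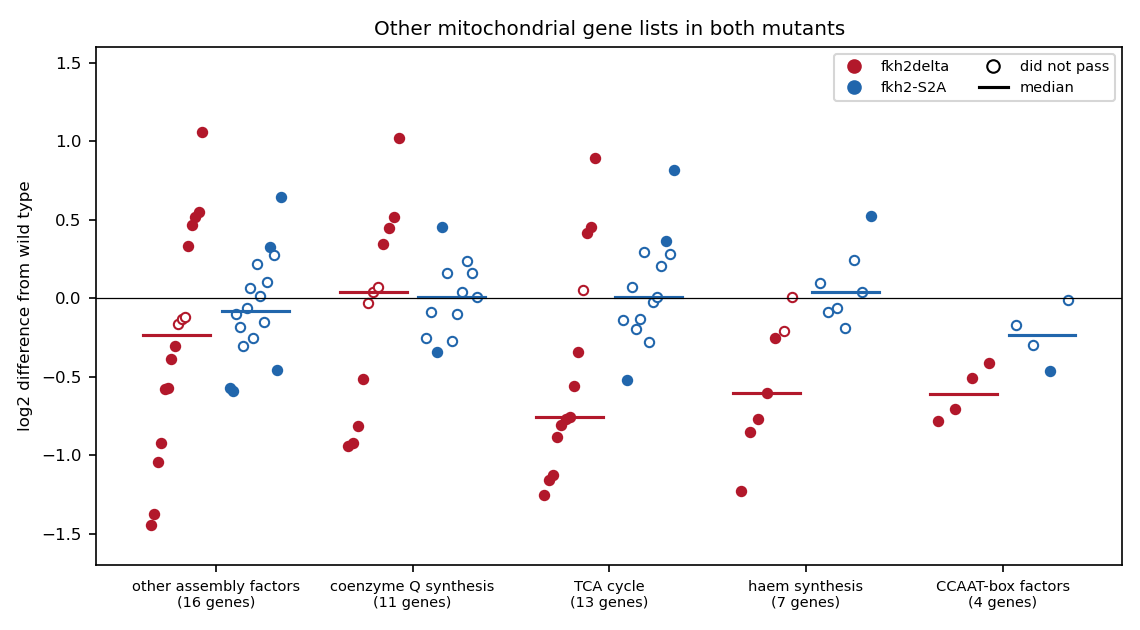
Log2 difference from wild type (y axis) of each gene in 5 lists of mitochondrial genes, fkh2delta in red left of fkh2-S2A in blue. Filled points passed an adjusted p of 0.05 and lines are list medians, which in fkh2delta are -0.76 for the TCA cycle, -0.60 for haem synthesis and -0.61 for the CCAAT-box factors.

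Coenzyme Q, the ubiquinone that complexes II and III share, is made by a pathway of which 11 genes were measured, and 4 of them rose and 4 fell in fkh2delta (median 0.04), against 40.4% of all probe sets higher and 23.6% lower. Under quantile normalization 2 rose and 4 fell (median -0.15), where 965 of all 2936 probe sets were higher and 893 lower. The methyltransferase gene coq3 rose by 1.02 ± 0.13 and the prenyltransferase gene ppt1 fell by 0.94 ± 0.12. In fkh2-S2A dps1, a subunit gene of the enzyme that makes the side chain, rose (0.45 ± 0.09). The coq9 difference of -0.34 ± 0.10 passed as deposited but not with the length trend removed (-0.28, adjusted p = 0.0606, limma). In fkh2-S2A against fkh2delta coq3 was lower (-1.01 ± 0.13) and dps1 higher (0.97 ± 0.09).

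A second list held 16 assembly and mitochondrial RNA-binding factors, not found by the symbol rule. It had 5 rises and 8 falls in fkh2delta (median -0.23), against 40.4% of all probe sets higher and 23.6% lower. In fkh2-S2A it had 2 rises and 3 falls (median -0.08), against 23.5% of all probe sets higher and 9.84% lower. Under quantile normalization 5 rose and 10 fell in fkh2delta (median -0.48). Of all 2936 probe sets 965 were higher and 893 lower in that setting. In fkh2delta the deepest were mss51, which in budding yeast controls synthesis of a mitochondrial subunit of complex IV (-1.44 ± 0.13), and ppr7, a pentatricopeptide repeat gene (-1.37 ± 0.15). In fkh2-S2A ppr3 rose (0.64 ± 0.15) and ppr7 fell (-0.59 ± 0.15). Against fkh2delta, cbp6, which in budding yeast serves cytochrome b, was lower in fkh2-S2A (-1.005 ± 0.10) and ppr5 was higher (0.94 ± 0.10).

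The widest difference in these lists was that of gut2, the glycerol-3-phosphate dehydrogenase that feeds electrons to ubiquinone. It read 9.59 and 9.24 in fkh2delta, 10.28 and 10.89 in fkh2-S2A and 11.46 and 11.54 in wild type. The 3 groups did not overlap, with fkh2delta at -2.09 ± 0.19 and fkh2-S2A at -0.91 ± 0.19 from wild type. The other quinone-linked dehydrogenase measured, ura3, did not pass. Both measured inner-membrane carriers fell in fkh2delta, the ADP/ATP carrier gene anc1 by 0.36 ± 0.09 and the oxaloacetate carrier gene oac1 by 0.31 ± 0.11. Neither passed in fkh2-S2A. Of all probe sets 23.6% were lower in fkh2delta. Of 3 fermentation genes the alcohol dehydrogenase gene adh4 fell by 1.53 ± 0.14 in fkh2delta and did not pass in fkh2-S2A (-0.08). The gene adh1 did not pass in either mutant (0.04 in fkh2delta and 0.10 in fkh2-S2A), nor did meu8 (0.32 in fkh2delta and -0.22 in fkh2-S2A).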

How the data were processed

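The deposited values, 1 for each probe set on each array, were read as log2 signals from their range; no label states the base. RNA was isolated from mid-log cultures and labelled with biotin, per the labels' protocols, and the summary and normalization steps were not given in the sources used here. The values were used as deposited, with no pseudocount. The table holds 10928 probe sets, 213 of them controls, and 5177 unnamed ones were left out. Of the 5538 named in the platform annotation, 2936 matched an S. pombe gene of assembly ASM294v3 (3 by symbol), 2601 matched none and 1 was mixed. Of the 2936, 2917 had 1 gene. One further probe set with several genes matched the symbol pattern and was left out. The assembly served for names, gene length and neighbours.

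Differences were tested with limma 3.58.1 (R 4.3.3) in a single moderated linear model of group over the 6 arrays (3 residual and 5.73 prior degrees of freedom), two-sided. The steps were tested on simulated data. Differences of 0.5, 1 and 2 log2 were added to 67, 67 and 66 of 2936 probe sets in a simulated fkh2delta against wild type. The simulated noise was normal and independent between values. Of these changes 58.2%, 94.0% and 100% were recovered, with 5.62% false calls. In the deposited comparison 64.0% of probe sets were called, so these rates need not hold there. The number of arrays limits the precision.

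The members and the other gene lists were chosen with earlier results of these data known. Values on each array were given for up to 6 rises and 6 falls per comparison and the largest change of each complex. In fkh2-S2A against fkh2delta, however, qcr7, qcr2, atp5, cox9 and cox13 were given as differences only. From each other list up to 2 of the largest changes that passed were named. Values beyond that rule (ura4, hem1, gut2, the rip1 controls, sdh4 in fkh2delta, and sdh1 in fkh2-S2A against wild type) were added after they were seen. Alternatives were quantile normalization, median centring, removal of the gene-length trend, 2 filters on dim probe sets, a mean-variance trend, robust variances, 2 groups in the fit, the replicate number as a block, and each array left out.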

Additional observations from a re-analysis of the deposited data

How the results depend on the processing

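The counts and medians over the 42 members and the differences of members called or given with full statistics were recomputed in 17 other settings, and the other gene lists in 3 (quantile normalization, median centring and the length trend removed); the rip1 controls had none. No called member changed sign in any of the 17. For fkh2delta against wild type, where 23 members were called, the count ranged from 16 to 28, and from 16 to 25 when 1 array was left out. For fkh2-S2A against wild type, 11 members were called as deposited, 5 with the length trend removed, 25 with a mean-variance trend and 24 after median centring; with 1 array left out the count lay between 0 and 11. For fkh2-S2A against fkh2delta, 23 were called, and between 13 and 23 with 1 array left out. The share of calls that were higher in fkh2delta was 34.8% for members and 63.1% for all probe sets, and 21.4% and 51.9% after median centring; in fkh2-S2A it was 27.3% and 70.4%, 12.5% and 52.9% after median centring, and 60.0% and 69.1% with the length trend removed. Under quantile normalization the shares were 30.4% and 51.9% in fkh2delta and 22.2% and 51.2% in fkh2-S2A. Between the mutants the share higher in fkh2-S2A was 52.2% and 45.8%, and 65.0% and 45.8% with the length trend removed. The median member difference of fkh2-S2A from fkh2delta, -0.02 as deposited, was 0.12 with the length trend removed and 0.12 with the block and the trend removed together. With the replicate number as a block 23, 7 and 21 members were called in fkh2delta, in fkh2-S2A and between them, and with the block and the length trend removed 23, 5 and 19. Same-numbered arrays did not deviate together (correlations of -0.18, -0.09 and -0.27). Since each group holds 2 arrays, these values cannot show whether the arrays were paired. With the fkh2delta numbers crossed the block gave 24, 14 and 22 calls. That setting and the block with the length trend removed were both chosen after seeing the data. Of the 11 fkh2-S2A calls none held in all 17 settings; qcr8, cox5 and cox6 were lost in 11 each, atp20 in 10, cox17 in 4 and rip1 and atp18 in 1 each. The causes were not tested. No outlier test was made, since each group holds 2 arrays.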
